A study of Mus musculus with 8 samples.

Results

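The genes described here are 35 genes that endothelial cells, the cells lining blood vessels, express, measured in pools of adipose tissue macrophages (ATMs). They were chosen by exact gene symbol in the array annotation, from features that carry 1 symbol, with the brightest probe set standing for each gene. All 35 were measured, among 18820 genes in all, and 1 of them, Ramp2, had a further probe set, which was dim on all 8 arrays. The pools came from male wild-type C57Bl/6 mice and were compared by diet, obese (high-fat diet, HFD) vs lean (low-fat diet, LFD). There were 4 experiments, each with 1 obese pool and 1 lean pool of several mice, so each pool is 1 array and n = 4 per diet. Fat made up 45% of the energy in the HFD of experiments 1 and 3, 60% in that of experiments 2 and 4, and 10% in each LFD. The labels name lard for every diet, and the methods name a separate LFD matched to each HFD. According to the labels, feeding lasted 16, 15, 16 and 10 weeks in experiments 1, 2, 3 and 4, while the methods of the study give 16 weeks. The ages of the mice are not given in the sources used here. Cells were released from epididymal fat with collagenase, and the stromal vascular fraction was passed over magnetic beads against Emr1, a macrophage surface protein encoded by Adgre1, so the pools are enriched for macrophages and were not sorted against other cells. Levels are log2 values from whole-transcript arrays, on which 1 unit is a doubling, and levels of different genes cannot be ranked against each other.

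Adipose tissue is densely supplied with capillaries, whose endothelial cells are joined by VE-cadherin and claudins, respond to vascular endothelial growth factors and angiopoietins through receptor tyrosine kinases, and pass fatty acids from circulating lipoproteins to adipocytes. Their identity is kept by ETS and SOX transcription factors. Digestion of fat with collagenase releases endothelial cells together with macrophages into the stromal vascular fraction. In RNA from a pool of cells, fewer cells of a type and less RNA per cell cannot be told apart.

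The pools differed in how far they carried the macrophage marker used for selection. Adgre1 measured 8.58, 10.70, 10.67 and 10.19 in obese pools of experiments 1 to 4 and 6.54, 10.27, 10.95 and 9.95 in lean pools of the same experiments. Both pools of experiment 1 were the lowest of the 8, and the lean pool of experiment 1 was the lowest of all. A list of 15 macrophage genes, among them Csf1r, the receptor for a macrophage growth factor, and Cd68, a lysosomal protein, was likewise lowest in experiment 1, with mean levels of 8.61, 10.15, 10.09 and 9.97 in obese pools and 7.36, 10.27, 10.53 and 9.91 in lean pools. All 15 had both arrays of experiment 1 below the 6 others, as did 2813 of all 18820 genes. The medians of the 8 arrays lay between 4.25 and 4.39. The diet comparison, the gene slopes and the ranges over arrays are also given without experiment 1.

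Endothelial transcripts were found in every pool, and their level differed more between pools of the same diet than between the means of the diets. At most 3 of the 35 genes on any array lay under 4.32, the log2 of 20, below which levels were treated as dim. The mean of the 35 genes was 9.77, 7.40, 7.41 and 7.10 in ATM pools from obese mice of experiments 1 to 4, against 10.13, 8.19, 5.67 and 8.61 in pools from lean mice. Both pools of experiment 1 were high, the lean pool of experiment 3 was low, and the diets overlapped. By diet the mean was 7.92 ± 1.24 in obese pools and 8.15 ± 1.85 in lean pools (SD, n = 4 each). The lean pools of experiments 1 and 3, given the same diet for the same time by the labels, lay furthest apart, by 4.46 on the log2 scale, or 22.0-fold. Outside experiment 1, the mean spanned 0.31 among the 3 obese pools and 2.94 among the 3 lean pools. Most of the lean range came from the low lean pool of experiment 3. The lean pools of experiments 2 and 4 differed by 0.42, still more than the 0.31 among the 3 obese pools.

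**Figure D1:**
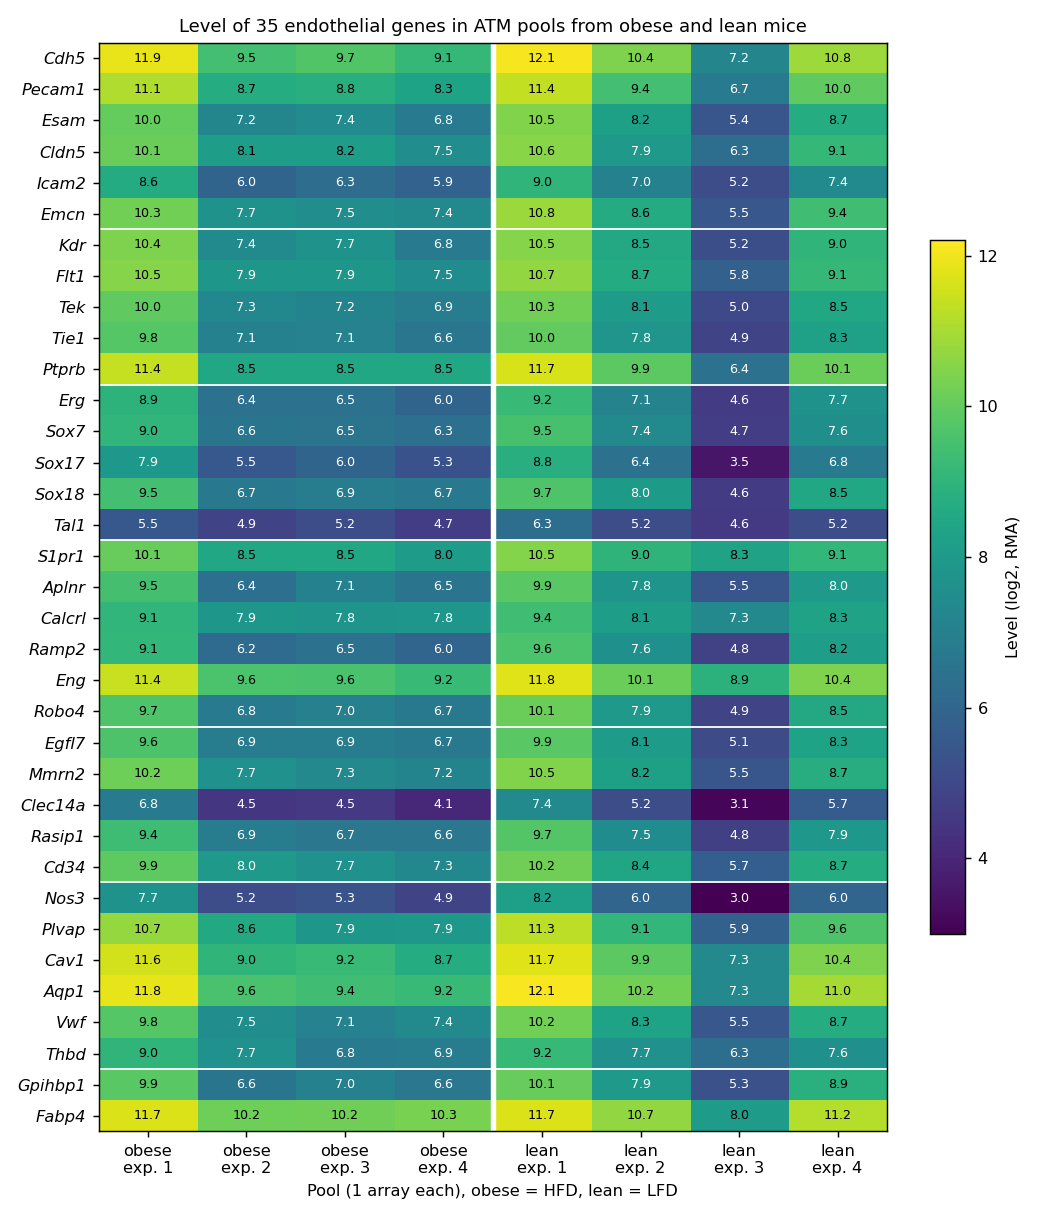
Level (log2, RMA; colour and printed value) of each of the 35 genes (rows, grouped by role with white lines) in each of the 8 pools (columns, obese pools left of lean pools). The columns of experiment 1 hold the 2 highest values of every gene, and the lean pool of experiment 3 holds the lowest value of 34 of the 35 genes.

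Junction and adhesion genes varied together across the pools. Cdh5, which encodes VE-cadherin, the adhesion protein of endothelial junctions, had 11.88, 9.45, 9.72 and 9.11 in ATM pools from obese mice of experiments 1 to 4, against 12.08, 10.41, 7.20 and 10.85 in the matched pools from lean mice. Its obese pools of experiments 2 to 4 lay close together, whereas its lean pools of the same experiments ranged widely. Pecam1, an adhesion protein of endothelial junctions that platelets and leucocytes also carry, measured 11.10, 8.71, 8.78 and 8.32 in obese pools and 11.35, 9.44, 6.74 and 9.95 in lean pools. Cldn5, the claudin of endothelial tight junctions, measured 10.14, 8.10, 8.17 and 7.53 in obese pools and 10.56, 7.93, 6.32 and 9.12 in lean pools, and was 1 of 2 genes that were not lower in the obese pool of experiment 2. The remaining junction genes also had both pools of experiment 1 highest and the lean pool of experiment 3 lowest. Esam, an immunoglobulin-like adhesion molecule, spanned 6.83 to 10.01 in obese pools and 5.45 to 10.46 in lean pools. Icam2, a ligand for leucocyte integrins, spanned 5.89 to 8.65 in obese pools and 5.19 to 9.01 in lean pools. Emcn, the sialomucin endomucin, spanned 7.37 to 10.25 in obese pools and 5.51 to 10.82 in lean pools. The gap between the log2 levels of Cdh5 and Pecam1, which compares arrays and not genes, stayed between 0.46 and 0.97 on the 8 arrays.

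The receptors for vascular endothelial growth factors and angiopoietins ranked the pools in much the same order. Kdr, the main signalling receptor for VEGF-A, had 10.43, 7.42, 7.71 and 6.82 in ATM pools from obese mice of experiments 1 to 4, against 10.54, 8.55, 5.20 and 9.02 in the matched pools from lean mice. The lean pool of experiment 3 lay below every other pool, and the obese pool of experiment 4 was the next lowest. Flt1, a VEGF receptor that binds the ligand tightly and signals weakly, measured 10.53, 7.87, 7.86 and 7.47 in obese pools and 10.71, 8.68, 5.84 and 9.12 in lean pools. Tek, the angiopoietin receptor, measured 9.96, 7.29, 7.16 and 6.86 in obese pools and 10.26, 8.08, 5.02 and 8.48 in lean pools. Tie1, its partner receptor, measured 9.78, 7.06, 7.08 and 6.60 in obese pools and 9.99, 7.80, 4.89 and 8.26 in lean pools. These 3 genes ranked the 8 pools almost alike, and the gap between Tie1 and Tek ran only from -0.28 to -0.09 on the 8 arrays. Ptprb, the phosphatase that restrains Tek and VE-cadherin signalling, measured 11.41, 8.48, 8.49 and 8.47 in obese pools and 11.66, 9.89, 6.45 and 10.12 in lean pools, with its 3 obese pools outside experiment 1 nearly equal.

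Transcription factors of the endothelial programme moved as the junction genes did, with the exception of Tal1. Erg, the ETS factor that maintains endothelial identity, had 8.93, 6.42, 6.46 and 5.97 in ATM pools from obese mice of experiments 1 to 4, against 9.24, 7.11, 4.63 and 7.73 in the matched pools from lean mice. It ranked the 8 pools in the same order as Cdh5. Sox17, a SOX factor of arterial endothelium, measured 7.89, 5.54, 5.95 and 5.31 in obese pools and 8.82, 6.42, 3.54 and 6.77 in lean pools, and was dim in the lean pool of experiment 3. Its relatives Sox7 and Sox18 spanned 6.34 to 9.05 in obese pools and 4.68 to 9.52 in lean pools (Sox7) and 6.73 to 9.46 in obese pools and 4.59 to 9.66 in lean pools (Sox18). Tal1, a factor of blood and endothelial development, measured 5.54, 4.90, 5.17 and 4.68 in obese pools and 6.32, 5.17, 4.57 and 5.17 in lean pools. It ranged over 1.75, the least of the 35 genes.

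Other receptors fell into genes that followed the rest and genes with a narrower range. Aplnr, the apelin receptor, measured 9.49, 6.37, 7.05 and 6.52 in obese pools and 9.86, 7.76, 5.46 and 7.95 in lean pools. Ramp2, which turns Calcrl into an adrenomedullin receptor, measured 9.09, 6.23, 6.47 and 6.02 in obese pools and 9.61, 7.62, 4.79 and 8.16 in lean pools. Robo4, a roundabout receptor of vessel stability, spanned 6.70 to 9.67 in obese pools and 4.88 to 10.13 in lean pools. Calcrl itself moved less than Ramp2, and measured 9.06, 7.86, 7.76 and 7.82 in obese pools and 9.36, 8.11, 7.34 and 8.30 in lean pools. S1pr1, the receptor for sphingosine 1-phosphate that protects vascular barriers and also guides lymphocytes, measured 10.07, 8.51, 8.49 and 8.04 in obese pools and 10.48, 8.98, 8.30 and 9.08 in lean pools. It was the 1 gene whose lowest pool was the obese pool of experiment 4 and not the lean pool of experiment 3. Eng, the TGF-β co-receptor endoglin, which activated macrophages also carry, spanned 9.23 to 11.43 in obese pools and 8.91 to 11.76 in lean pools. The ranges of Ramp2 and Calcrl over the 8 arrays were 4.82 and 2.03.

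Matrix-facing and signalling proteins had both pools of experiment 1 highest and the lean pool of experiment 3 lowest in every case. Egfl7, a protein secreted by endothelium into the matrix, measured 9.62, 6.90, 6.85 and 6.71 in obese pools and 9.86, 8.05, 5.14 and 8.33 in lean pools. Mmrn2, a matrix glycoprotein, spanned 7.16 to 10.17 in obese pools and 5.46 to 10.47 in lean pools. Clec14a, the endothelial lectin that binds Mmrn2, spanned 4.06 to 6.81 in obese pools and 3.13 to 7.37 in lean pools and was dim in the obese pool of experiment 4 and in the lean pool of experiment 3. These 2 partners in binding kept the same extremes. Rasip1, a Ras-interacting protein needed for vessel lumens, spanned 6.65 to 9.36 in obese pools and 4.76 to 9.72 in lean pools. Cd34, a sialomucin of endothelium that stromal progenitors of fat also carry, spanned 7.30 to 9.92 in obese pools and 5.73 to 10.22 in lean pools.

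Genes of vascular tone, barrier and clotting included both steep and shallow movers. Nos3, endothelial nitric oxide synthase, measured 7.70, 5.16, 5.34 and 4.88 in obese pools and 8.20, 6.02, 3.01 and 5.99 in lean pools, and was dim in the lean pool of experiment 3. Plvap, which forms the diaphragms of fenestrae and caveolae, measured 10.75, 8.59, 7.86 and 7.91 in obese pools and 11.30, 9.09, 5.87 and 9.64 in lean pools. Vwf, the von Willebrand factor that platelets bind, measured 9.76, 7.50, 7.07 and 7.40 in obese pools and 10.25, 8.33, 5.49 and 8.70 in lean pools. Apart from the lean pool of experiment 3, the lowest pools of Plvap and Vwf were obese ones. Cav1, the coat protein of caveolae, spanned 8.69 to 11.58 in obese pools and 7.35 to 11.74 in lean pools, and Aqp1, a water channel, spanned 9.24 to 11.84 in obese pools and 7.33 to 12.12 in lean pools. Thbd, thrombomodulin, which turns thrombin towards anticoagulation and is also found on myeloid cells, measured 9.02, 7.67, 6.84 and 6.90 in obese pools and 9.15, 7.67, 6.33 and 7.63 in lean pools. Its pools of experiment 2 had the same level in both diets.

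Of the genes of lipid handling, Gpihbp1, which carries lipoprotein lipase to the capillary surface, measured 9.86, 6.56, 7.04 and 6.64 in obese pools and 10.08, 7.94, 5.29 and 8.86 in lean pools. Fabp4, a fatty acid-binding protein of capillary endothelium that adipocytes and macrophages also express, measured 11.71, 10.17, 10.21 and 10.35 in obese pools and 11.72, 10.71, 8.04 and 11.17 in lean pools. Both had their lowest level in the lean pool of experiment 3, and Fabp4 was nearly equal in the obese and lean pools of experiment 1.

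HFD vs LFD was then compared within each experiment, since the question of the study was how obesity changes ATMs. ATMs from obese mice had lower endothelial levels than ATMs from lean mice in experiments 1, 2 and 4 and higher levels in experiment 3. The mean of the 35 genes, obese minus lean, was -0.36, -0.79, 1.74 and -1.51 in experiments 1 to 4, which is 0.781, 0.579, 3.35 and 0.352 times the lean level. The average of the 4 differences was -0.23 (SD 1.40, SE 0.70), less than their spread. In experiment 1, 35 of 35 genes were lower in the obese pool, against 48.6% of all genes, with differences from -0.93 for Sox17 to -0.01 for Fabp4. Experiment 2 had 33 of 35 lower, against 40.7% of all genes, from -1.41 for Ptprb to 0.17 for Cldn5. None of the 35 was lower in experiment 3, against 51.8% of all genes, and differences ran from 0.19 for S1pr1 to 2.52 for Cdh5. All 35 were lower in experiment 4, against 42.8% of all genes, from -2.22 for Gpihbp1 to -0.48 for Tal1. The pattern of lower in experiments 1, 2 and 4 and higher in experiment 3 held for 33 of 35 genes, all but Cldn5 and Thbd, and for 6.38% of all genes. The 35 genes are not independent of each other, so these counts describe 4 pairs of pools.

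**Figure D2:**
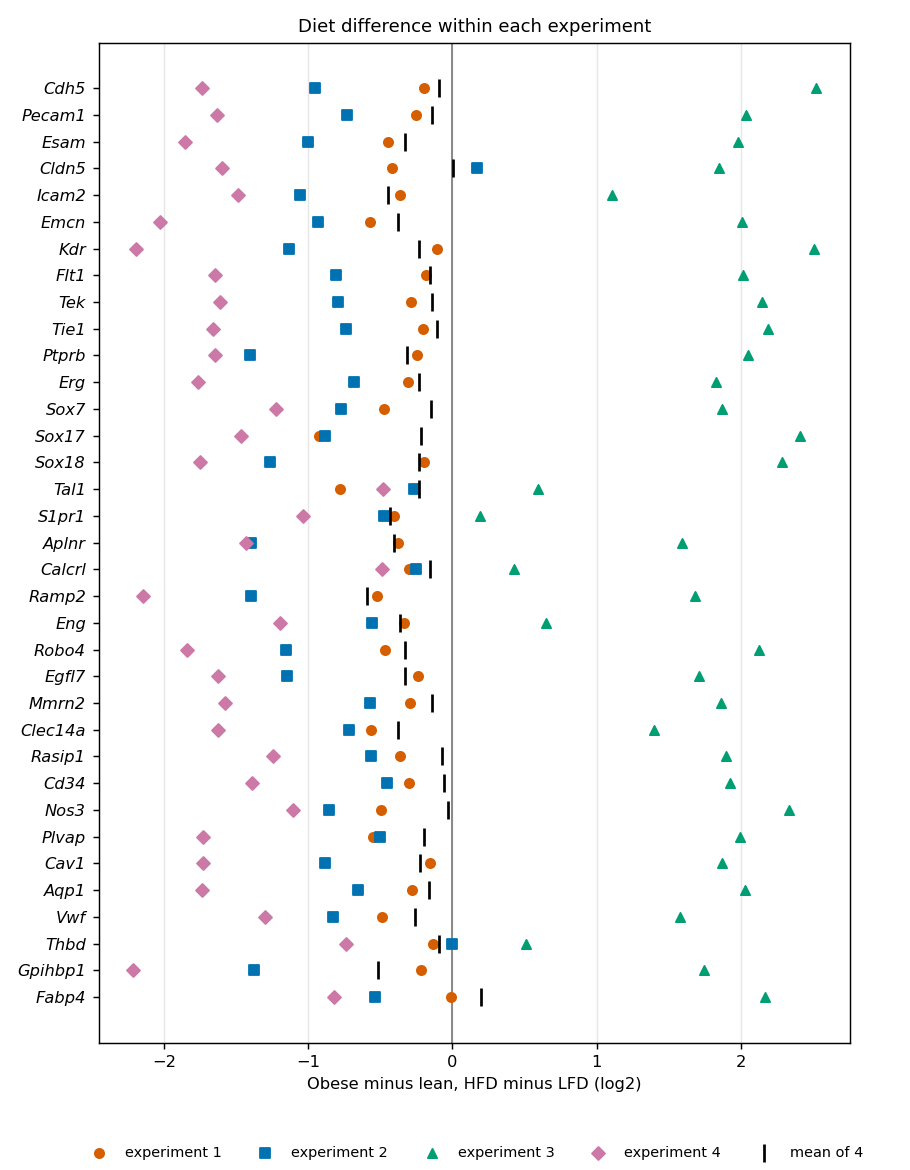
Obese minus lean level (HFD minus LFD, log2) of each gene in each of the 4 experiments (symbols) and their mean (black tick); each symbol is 1 pair of pools. Experiment 3 lies right of 0 for every gene and experiments 1 and 4 lie left of it, so the means stay close to 0.

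No endothelial gene passed the test of the diets in limma. The count past an adjusted p of 0.05 was 0 of 35, against 0.0% of all genes, and 0 of 35 had an unadjusted p under 0.05, against 4.81% of all genes. The smallest adjusted p among them was 0.999 (limma, Benjamini-Hochberg over 18820 genes), and standard errors ranged from 0.37 to 1.22. With experiment as a block the standard errors ranged from 0.16 to 0.74, and the count was again 0 of 35, against 0.0% of all genes, with 0 of 35 at an unadjusted p under 0.05, against 12.1% of all genes. Cdh5 had a mean difference of -0.09 (SE 1.07), Kdr of -0.23 (SE 1.22) and Ramp2, the most negative, of -0.59 (SE 1.10). Fabp4 had the most positive mean difference, 0.20 (SE 0.79). None of the 35 differed in 1 direction in all 4 experiments, against 18.4% of all genes. Likewise none had all obese pools above all lean pools (1.19% of all genes) or below them (0.68%). The median difference of the 35 genes was -0.23, against 0.00 for all genes. Without the lean pool of experiment 1 the median was 0.43, without the lean pool of experiment 3 it was -1.08, and without the obese pool of experiment 4 it was 0.09, so single pools set its direction. Without experiment 1 it was -0.14, and again 0 of 35 passed.

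Experiment 3 was the exception to the direction of the other pairs, and leaving it out was tried after the data had been seen. All 35 genes then had lower means in obese pools, with a median of -0.90, and with experiment as a block 32 of 35 had an unadjusted p under 0.05, against 14.1% of all genes. The smallest adjusted p was 0.141, for Sox17, so 0 of 35 passed. The fat content of the HFD gave a related split. In the 45% experiments the median difference was 0.76, and in the 60% experiments, both of which had lower levels in the obese pool, it was -1.20. In the 60% experiments alone, with the block, 31 of 35 genes had an unadjusted p under 0.05, against 12.1% of all genes, and 0 passed adjustment. The difference between the 2 fat contents was tested directly as an interaction. It was positive (45% minus 60%) for all 35 genes, with a median of 1.99 and a range from 0.28 to 2.86, beside a median of -0.06 over all genes. At an adjusted p of 0.05 the interaction counted 0 of 35, against 0.0% of all genes, and the smallest adjusted p was 0.951 (limma). Unadjusted, 10 of 35 had a p under 0.05, against 3.95% of all genes. Both 45% experiments lasted 16 weeks by the labels, but their own differences had opposite signs (-0.36 in experiment 1 and 1.74 in experiment 3 for the mean of the 35 genes). The 60% experiments lasted 15 and 10 weeks, and the methods name a separate LFD matched to each HFD. Fat content, feeding time and the matched LFD therefore cannot be told apart.

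The spread between experiments was tested in a fit that held diet as a term. Experiment 1 had the higher level for all 35 genes, by a median of 2.74 over the mean of experiments 2 to 4, beside -0.03 for all genes, and the mean of the 35 was 2.55 higher, or 5.86-fold. The contrast was chosen with earlier results of these data known. It passed an adjusted p of 0.05 in the higher direction for 29 of 35 genes, against 11.6% of all genes, and in the lower direction for 0 of 35, against 10.1%. Kdr had the biggest excess in experiment 1, 3.03 (SE 0.86, adjusted p = 0.0603), and did not pass. Tek differed by 2.96 (SE 0.69, adjusted p = 0.0336) and Robo4 by 2.92 (SE 0.74, adjusted p = 0.0429). Smaller but less variable excesses were found for Thbd, 1.91 (SE 0.23, adjusted p = 0.00703), S1pr1, 1.71 (SE 0.23, adjusted p = 0.00842), and Calcrl, 1.35 (SE 0.19, adjusted p = 0.00897). The 6 genes that did not pass were Cdh5, Kdr, Sox17, Sox18, Aqp1 and Fabp4, with adjusted p from 0.0508 to 0.121, and Tal1 passed narrowly, with 0.99 (SE 0.26, adjusted p = 0.0499). Both arrays of experiment 1 lay above the 6 others for 35 of 35 genes, against 16.4% of all genes, and the lean pool of experiment 1 was the highest of the 8 for 35 of 35, against 19.7%. The lean pool of experiment 3 was the lowest for 34 of 35, against 11.7% of all genes. A range over 3 on the log2 scale was found for 30 of 35 genes, against 4.8% of all genes, and the median range was 4.79 beside 0.63 for all genes. Over the 6 arrays of experiments 2 to 4 it was found for 24 of 35, against 0.946% of all genes, with median ranges of 3.21 for the 35 and 0.50 for all genes.

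The F test across the 4 experiments passed for 3 of 35 genes (8.57%), S1pr1, Calcrl and Thbd, against 8.96% of all genes, a similar share. At an unadjusted p under 0.05 the count was 32 of 35, against 27.2% of all genes. In that test the difference between the 2 pools of an experiment, once the mean diet difference is removed, is the error, and it was large in experiment 3. Without experiment 3, a choice made after the data had been seen, 35 of 35 passed, against 13.7% of all genes. Without experiment 1, 0 of 35 passed, and 0 of all 18820 genes did.

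**Figure D3:**
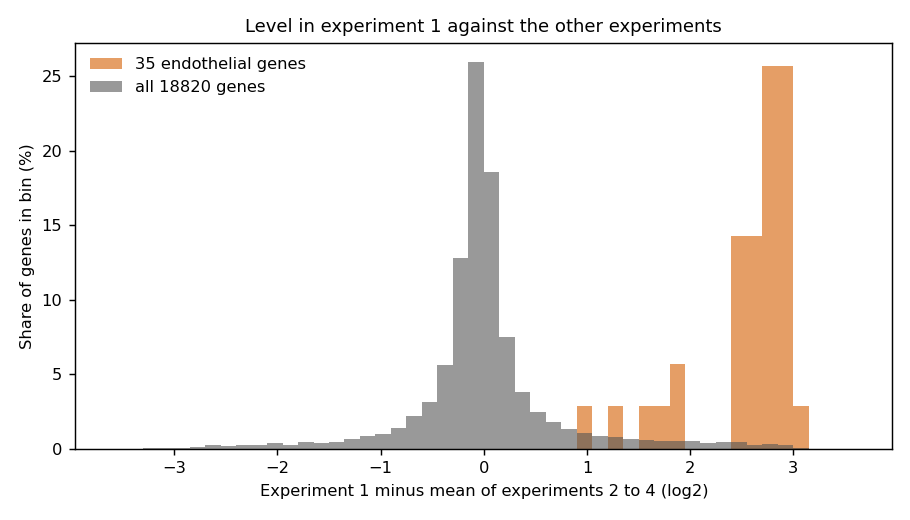
Share of genes (%) by the difference between experiment 1 and the mean of experiments 2 to 4 (log2), for the 35 endothelial genes and for all 18820 genes. All 35 lie right of 0, from 0.99 (Tal1) to 3.03 (Kdr), while all genes centre near 0.

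Genes of the set moved together by different amounts. The 8 array means held 93.9% of the variance of the 35 genes around their own means, and 89.6% over the 6 arrays of experiments 2 to 4. For all genes on 8 arrays the share was 0.309%. Quantile normalisation keeps the mean of all genes nearly equal between arrays, so that share is low by design and is no background for the 35. Each gene was set against the mean of the other 34 over the 6 arrays of experiments 2 to 4, which share their arrays and normalisation. Correlations ranged from 0.77 to 1.00 with a median of 0.99 (n = 6 arrays, a description). Slopes, the log2 change of a gene per log2 change of the others, separated the genes more clearly. The 20 genes that are known mainly from vessels had slopes from 0.84 to 1.34 with a median of 1.12. The 15 genes that are also known from other cells, a grouping made from background knowledge, had slopes from 0.22 to 1.20 with a median of 1.02. The 5 lowest were Tal1 (0.22), S1pr1 (0.29), Calcrl (0.31), Thbd (0.47) and Eng (0.52), all from the group with wider expression. Tal1 lay between 4.57 and 5.17 on these 6 arrays, near the dim limit of 4.32, and whether that lowered its slope was not tested. The steepest were Kdr (1.34), Sox18 (1.33), Emcn (1.30), Ptprb (1.29) and Plvap (1.28), all from the mainly vascular group. Fabp4 had a slope of 1.02 on these 6 arrays and 0.75 on all 8. Over all 8 arrays the medians were 1.12 and 0.98 for the groups in the same order.

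**Figure D4:**
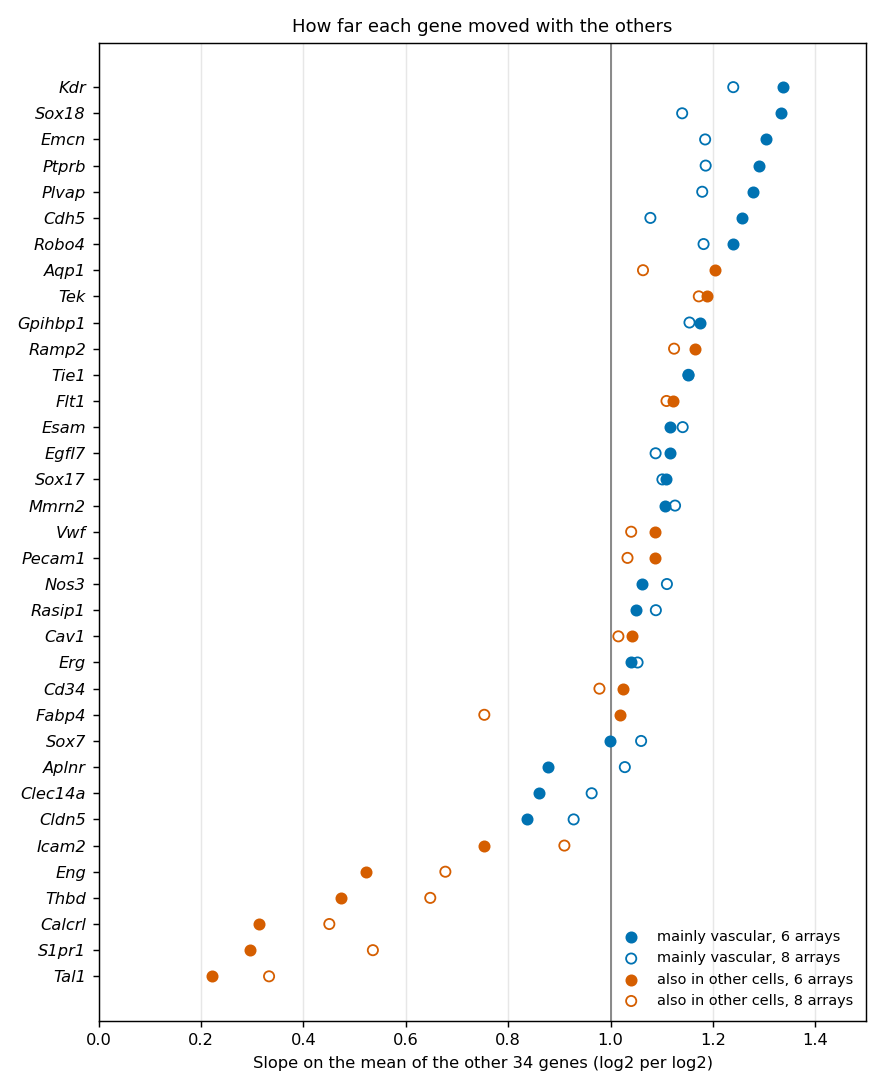
Slope of each gene on the mean of the other 34 (log2 per log2) over the 6 arrays of experiments 2 to 4 (filled) and over all 8 arrays (open), coloured by whether the gene is known mainly from vessels. The 5 lowest filled points, from 0.22 to 0.52, are all genes also known from other cells.

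Promoter sequences are given for steep and shallow genes, to set them beside the slopes. RefSeq windows of 300 bases (250 before and 50 after a start site, GRCm38.p6) were at hand for 17 of the 35 genes, in 23 windows. The letters GGAAG or CTTCC, the core of ETS sites read on either strand, occurred in windows of 15 of 17 genes (88.2%), against 73.9% of 27025 genes with a window. SOX letters (ACAAT or ATTGT) occurred for 47.1% against 34.4%, GATA letters (GATAA or TTATC) for 41.2% against 28.4%, FOX letters (TGTTT or AAACA) for 64.7% against 54.1%, and KLF letters (CACCC or GGGTG) for 94.1% against 59.8%. FOX and SOX letters can share bases, where AAACA runs into ACAAT. The 250 bases before the start are shown for Tie1 and Robo4, which moved steeply (slopes 1.15 and 1.24), and for Eng and Calcrl, which moved less (0.52 and 0.31), 5′ to 3′ on the strand of the gene, with ETS letters in capitals. Tie1 lies at chr4:118489850-118490099, minus strand, Robo4 at chr9:37401722-37401971, plus strand, Eng at chr2:32646345-32646594, plus strand and Calcrl at chr2:84425267-84425516, minus strand.
Tie1: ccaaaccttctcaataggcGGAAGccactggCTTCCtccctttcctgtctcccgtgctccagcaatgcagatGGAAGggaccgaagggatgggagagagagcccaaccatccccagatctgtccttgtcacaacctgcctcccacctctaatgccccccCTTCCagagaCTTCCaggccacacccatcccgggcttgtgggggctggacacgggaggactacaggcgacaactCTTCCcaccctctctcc
Robo4: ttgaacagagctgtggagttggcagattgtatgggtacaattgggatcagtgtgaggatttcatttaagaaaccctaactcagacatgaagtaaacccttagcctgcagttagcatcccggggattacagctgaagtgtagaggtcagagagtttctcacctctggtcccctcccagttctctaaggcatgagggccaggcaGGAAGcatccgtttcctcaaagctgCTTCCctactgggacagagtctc
Eng: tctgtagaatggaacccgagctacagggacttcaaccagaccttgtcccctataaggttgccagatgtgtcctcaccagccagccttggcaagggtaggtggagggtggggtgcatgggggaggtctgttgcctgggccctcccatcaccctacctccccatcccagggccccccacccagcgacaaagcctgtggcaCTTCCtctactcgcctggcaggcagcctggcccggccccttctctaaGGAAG
Calcrl: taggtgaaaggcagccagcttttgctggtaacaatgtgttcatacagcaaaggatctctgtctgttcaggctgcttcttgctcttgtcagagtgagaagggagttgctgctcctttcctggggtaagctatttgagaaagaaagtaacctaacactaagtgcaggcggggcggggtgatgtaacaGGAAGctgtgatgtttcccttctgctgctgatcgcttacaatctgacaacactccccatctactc
There were 6 matches in the Tie1 stretch, 2 in Robo4, 2 in Eng and 1 in Calcrl. The same 250 bases of Kdr, the steepest gene (slope 1.34), held 1 match, and those of Cldn5 (slope 0.84) held 0, so the number of matches did not follow the slopes. A match is a string of letters and not a bound site. In the same RefSeq table Robo4 and Esam lie on 1 chromosome with 2 genes between them, and Icam2 and Pecam1 with 6 genes between them.

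Markers of other cells moved with the endothelial genes between experiments, in part. Mural cells, the pericytes and smooth muscle cells that wrap vessels, were followed with 12 genes, among them Pdgfrb, their PDGF receptor, Rgs5, a pericyte marker, and Cspg4. Their mean level was 8.66, 6.71, 6.37 and 6.14 in obese pools and 8.75, 6.87, 4.86 and 7.01 in lean pools. Like the endothelial genes, all 12 had both pools of experiment 1 above the others, against 16.4% of all genes. The contrast of experiment 1 passed as higher for 11 of them (limma, adjusted p under 0.05), against 11.6% of all genes. Within experiments the mural genes differed in part from the endothelial genes. In the obese pool of experiment 1, 6 of the 12 were higher and 6 lower, with a median difference of -0.02. In experiment 2, 11 were lower, with a median of -0.16, in experiment 3 all 12 were higher, with a median of 1.45, and in experiment 4, 11 were lower, with a median of -0.81. The order lower, lower, higher and lower in experiments 1 to 4 was found for 5 of the 12, against 6.38% of all genes. Fibroblast genes differed in this. The 13 measured, among them Pdgfra and the collagen genes Col1a1 and Col1a2, had means of 7.69, 8.31, 6.78 and 6.91 in obese pools and 7.63, 7.54, 5.62 and 7.41 in lean pools, and 1 of them, Col6a3, passed as higher in experiment 1. All 13 were higher in the obese pool of experiment 2, where 33 of the 35 endothelial genes were lower. The lean pool of experiment 3 had the lowest mean for endothelial, mural and fibroblast genes alike.

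The macrophage list ran against the endothelial genes in experiment 1, with a median difference of -2.38 from experiments 2 to 4. Past the adjusted threshold (limma), 13 of 15 were lower, against 10.1% of all genes. Cd163, a scavenger receptor, and Mertk, a receptor for dying cells, were the 2 that did not pass. Obese minus lean medians of the macrophage list were 1.27, 0.01, -0.30 and 0.17 in experiments 1 to 4, beside -0.31, -0.79, 1.90 and -1.63 for the endothelial genes. The signs of the medians were opposite in each experiment, which in experiment 2 rests on a macrophage median near 0. Adipocyte genes (10 measured, means 6.20, 5.03, 5.47 and 5.38 in obese pools and 6.10, 5.48, 5.53 and 6.01 in lean pools) ranged less. In the contrast of experiment 1, 4 of 10 passed as higher, against 11.6% of all genes. Immediate early genes such as Fos, Fosb and Jun, which respond to tissue dissociation, had list means from 10.69 to 10.78 in obese pools and from 10.64 to 10.89 in lean pools, and 0 of 10 passed the contrast in either direction. Markers of T cells, B cells, neutrophils, platelets, red cells and mesothelium had list means no higher than 5.05 on any array. These means do not show single genes. In the contrast of experiment 1, 1 B cell gene and 1 mesothelial gene passed as higher. As lower, 2 T cell genes, 2 B cell genes and 1 gene each of neutrophils, platelets and red cells passed. The part of these cells in the endothelial levels was not tested.

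**Figure D5:**
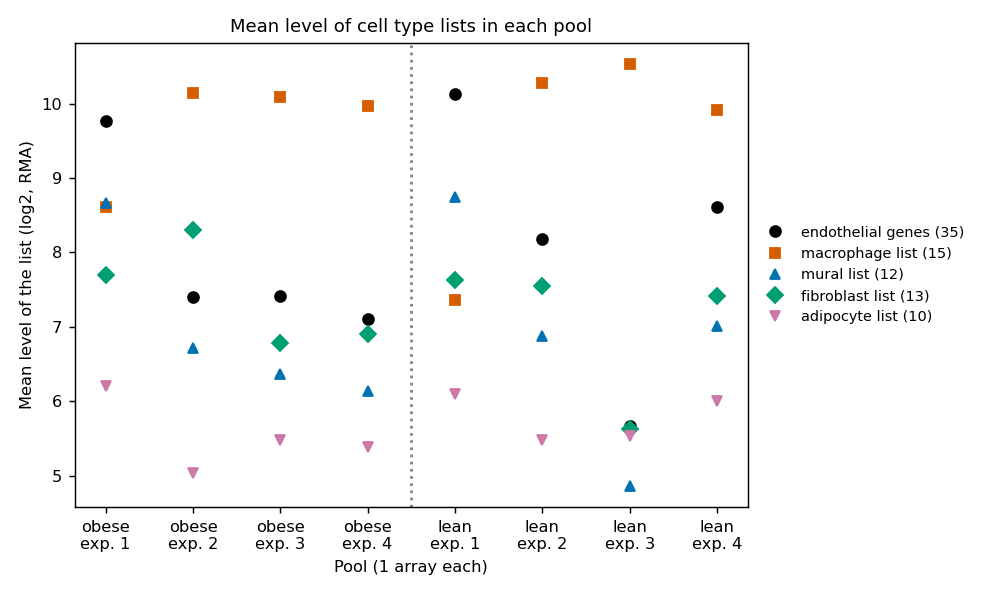
Mean level (log2, RMA) of the 35 endothelial genes and of 4 marker lists (number of genes measured in brackets) in each pool, obese pools left of lean pools; each point is 1 array. In experiment 1 the endothelial and mural lists are at their highest and the macrophage list at its lowest, and the lean pool of experiment 3 is low for endothelial, mural and fibroblast lists.

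Vessel segments were compared with further lists that hold few of the 35 genes. All 12 arterial genes had both pools of experiment 1 above the others, against 16.4% of all genes. The arterial list held Gja5 and Gja4, connexins of arterial endothelium, and Efnb2, the arterial ephrin. Of the 12, 11 passed as higher in experiment 1. Of 7 venous genes outside the 35, among them Nr2f2, the nuclear receptor of venous identity, Ephb4 and Selp, 7 passed. Capillary genes were mixed. Of 11 outside the 35, 4 passed, among them Meox2 and Cd300lg, and Cd36 and Lpl, which macrophages also express, differed by 0.38 (adjusted p = 0.0643, limma) and by -1.19 (adjusted p = 0.0517, limma). Of 11 genes of sprouting tip cells, 6 were higher and 1, Cxcr4, a chemokine receptor that leucocytes also carry, was lower. Among 9 lymphatic genes 4 were higher, including Prox1, the factor of lymphatic identity, and Flt4, the VEGF-C receptor, and 1 was lower, Lyve1, which tissue macrophages also carry. For each of these lists the share passing in all genes was 11.6% higher and 10.1% lower. Median obese minus lean differences of the arterial list were -0.13, -0.26, 1.50 and -0.83 in experiments 1 to 4. Those of the 7 venous genes were -0.43, -0.33, 1.57 and -1.15. Both lists had medians with the signs of the 35 genes in each experiment, as the mural list did. Single arterial genes followed less closely, with 3 of 12 higher in the obese pool of experiment 1 and 5 in that of experiment 2. The order lower, lower, higher and lower held for 5 of 12 arterial and 5 of 7 venous genes, against 6.38% of all genes. Tip cell medians differed from these signs, at 0.07, 0.45, 1.13 and -0.09, and 10 of the 11 tip cell genes were higher in the obese pool of experiment 2.

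Ligands and partners of the same pathways followed in part. Of 22 ligands 9 were higher in experiment 1 and 2, Vegfb and Tgfb1, were lower, and of 61 partners (co-receptors, junction proteins, transcription factors and clotting genes) 34 were higher and 6 lower, again beside 11.6% and 10.1% of all genes. None of the ligands or partners passed the diet comparison in limma. Vegfa, the ligand of Kdr and Flt1, had 6.57, 6.63, 6.54 and 6.65 in obese pools and 5.82, 5.11, 6.10 and 6.38 in lean pools. Every obese pool lay above every lean pool, as for 1.19% of all genes and none of the 35, with a difference of 0.74 (SE 0.25, adjusted p = 0.982, limma). Pgf, a ligand of Flt1, had 6.61, 6.48, 6.48 and 7.07 in obese pools and 5.91, 5.43, 6.35 and 5.78 in lean pools, a difference of 0.79 (SE 0.21). Its diets did not overlap either, and the same held for Marveld2, a tight junction protein, with a difference of 0.44 (SE 0.14). The receptors of Vegfa, Kdr and Flt1, overlapped between the diets and were lower in obese pools of experiments 1, 2 and 4. Dll4, the Notch ligand of arteries and tip cells, had 9.26, 7.03, 6.97 and 6.31 in obese pools and 9.18, 6.90, 4.79 and 7.54 in lean pools. Both pools of experiment 1 were its highest and the lean pool of experiment 3 its lowest, but it was slightly higher in the obese pool of experiments 1 and 2.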

How the data were processed

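ATM pools from obese and lean mice were measured on 8 Affymetrix whole-transcript arrays, 4 per diet, 1 of each diet in each of 4 experiments. The values deposited by the authors are on the log2 scale, and the submitters' processing notes name RMA (background correction, quantile normalisation and probe set summary; version not given in the sources used here). Quantile normalisation gives the arrays like distributions, so a level is relative to the other genes of its array. Array details that the study leaves to its supplement were not used. Of 35556 features 21218 carried 1 symbol, 1881 several and 12457 none in the array annotation, which left 18820 genes, each with its brightest probe set. All 35 endothelial genes matched a RefSeq gene by Entrez ID under the same symbol. The genes, the lists of other cell types and the contrasts were chosen with earlier results of these data known. Each array is a separate pool, so p-values measure the spread between pools, and the number of arrays limits the precision.

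Values were analysed as deposited in R 4.3.3 with limma 3.58.1 (lmFit, eBayes, Benjamini-Hochberg over 18820 genes, threshold 0.05, two-sided). The methods name Student's t test for 2 groups and leave the array analysis to a supplement. Fits were diet alone, experiment with diet as a term, experiment 1 against experiments 2 to 4, and diet by fat content with experiment as a block. The experiment number in the labels was taken to pair the obese and lean pools. Their deviations from the diet means had r = 0.889, 0.357, 0.652 and 0.186 across genes in experiments 1 to 4, with genes not independent. Each diet mean includes experiment 1, which stood apart in both diets and so also shifts the deviations of the other experiments. These correlations therefore cannot decide whether the pools are paired. The alternatives tried were a block for experiment, fixed or random, the mean-variance trend, the methods' t-test, centred arrays, the mean of all probe sets, no genes dim (under 4.32) on more than 4 arrays, no diet term, each fat content alone, no experiment 1 and each array left out. Leaving out experiment 3 was added after the data had been seen. The diet fit without a block and with a fixed block, the contrast of experiment 1 and the interaction were tested on simulated data. The F test, the random block, the trend and the t-test were not.

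All 35 genes are named. Of other lists the text names the first 3 measured genes, genes that pass a test and are used, and ligands or partners whose diets do not overlap. Cd163, Mertk and Lpl are not covered by it and were picked after seeing their values. Promoter stretches were taken from RefSeq windows and searched for exact letters on both strands.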

Additional observations from a re-analysis of the deposited data

Results flagged for a closer look

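In the 4 obese pools, 23 of the 35 genes and the mean of the 35 had a highest pool, that of experiment 1, set far apart from the others. The measure was the gap from that pool to the next, divided by the range of the 4 pools, set against the critical value of Dixon's test for 4 values. Chance alone would pass about 1 in 20 such groups. Of all 18820 genes, 17.4% passed in the obese pools, 3.79% with the pool of experiment 1 as the highest, and 12.6% passed in the lean pools. The 72 groups examined are not independent, because the genes share their arrays. The 24 that passed were all of obese pools, and 0 of the lean groups passed. The ratio was 0.882 for the mean of the 35 genes. Among junction genes it was 0.835 for Pecam1, 0.852 for Icam2 and 0.881 for Emcn. Among receptors of growth factors it was 0.869 for Flt1, 0.863 for Tek and 0.85 for Tie1, and Ptprb, whose other 3 obese pools were nearly equal, had the highest ratio, 0.992. Transcription factors had 0.835 (Erg), 0.914 (Sox7) and 0.949 (Sox18). Other receptors had 0.925 (Calcrl), 0.851 (Ramp2), 0.836 (Eng) and 0.898 (Robo4). Matrix-facing and signalling proteins had 0.932 (Egfl7), 0.837 (Mmrn2), 0.83 (Clec14a) and 0.908 (Rasip1). The remaining genes had 0.838 (Nos3), 0.871 (Aqp1), 0.838 (Vwf), 0.856 (Gpihbp1) and 0.887 (Fabp4). The lean pool of experiment 1 was higher still for each of these genes, but the other lean pools were spread more widely. The obese pool of experiment 1 also had the lowest Adgre1 level of the obese pools, 8.58, and whether that moved the endothelial levels was not tested.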

How the results depend on the processing

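The count of endothelial genes that differed between obese and lean pools was 0 in every alternative tried. The count over all genes tested was also 0 in each, so this 0 is not particular to the 35. Among the alternatives were the replicate block (0 of 35), the random block and the methods' t-test after adjustment. Both fat contents alone and the fits without experiment 1 or experiment 3 were also among them. The median difference, -0.23, was -0.90 without experiment 3, -1.20 in the 60% experiments and 0.76 in the 45% experiments, and ranged from -1.08 to 0.43 when each array was left out in turn. It moved above 0 without the obese pool of experiment 4 (0.09) and without the lean pool of experiment 1 (0.43). The number of genes with a positive mean difference was 2 as reported, 34 without the lean pool of experiment 1 and 0 without the lean pool of experiment 3. The 3 genes that differed across experiments were 2 with no diet term and 0 without experiment 1, where 0 of all genes passed. Without experiment 3 the count was 35, against 13.7% of all genes. Both fits without an experiment had fewer arrays, and the cause of these changes was not tested. The count of genes higher in experiment 1, 29 as reported, was 29 to 33 under the alternatives. Over all 18820 genes, 4088 passed that contrast in either direction as reported. The 33 came from the fit without dim genes, where 3908 of 10623 genes passed in either direction, a larger share. With 4 pools per diet and 1 per experiment, standard errors reached 1.22, and a difference well above its standard error can still fail adjustment. Sox17, without experiment 3 and with the block, differed by -1.09 (SE 0.15, adjusted p = 0.141, limma) and did not pass. In the lean pool of experiment 3, 3 genes were dim.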
